A study of Mus musculus with 10 samples.

Results

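Zinc transporter and metallothionein transcripts were examined in testes of FXR-/- and WT mice at postnatal day 10. The 10 genes were Slc39a8 and its relatives Slc39a14, Slc39a1, Slc39a6, Slc39a7 and Slc39a10, the exporters Slc30a1 and Slc30a5, and the metallothioneins Mt1 and Mt2, out of 30719 genes in the count table. They were picked by name after the difference between the genotypes was known, with Slc39a8 as the starting point. Their FXR-/- to WT differences are therefore given as a description, with no p-value, and the number past the threshold of the genome-wide test is given once, beside the share of all genes.

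FXR-/- mice carry a null allele of Nr1h4, the gene of FXR, a transcription factor of the nuclear receptor family whose ligands are bile acids. The extent of the deletion is not given in the labels. WT mice were the reference, and both genotypes came from mixed 129sv and C57Bl stock. Whole testis RNA was sequenced from 5 individual mice per genotype, FXR-/- mice 8 to 12 and WT mice 3, 4, 5, 6 and 9, with 1 library per mouse. The strain origin of individual alleles was not examined.

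Cells set their free zinc with transporters of opposite direction. ZIP proteins, encoded by Slc39 genes, move zinc into the cytosol from outside or from organelles, and ZnT proteins, encoded by Slc30 genes, move it out of the cytosol. Metallothioneins are small cysteine-rich proteins that bind zinc, copper and cadmium. The zinc-sensing factor MTF-1 binds metal response elements in the promoters of Mt1, Mt2 and Slc30a1 and raises their transcription when zinc is high. In the testis, Slc39a8 is known from the mouse Cdm locus, which sets how far cadmium damages the organ in different inbred strains, with the testis blood vessels as the site of injury.

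The libraries held 32330029 to 39655170 counts. Nr1h4 had 8, 9, 11, 11 and 13 counts in FXR-/- libraries, against 13 to 26 in WT libraries, so the gene was hardly expressed in whole testis of either genotype. Its level was 0.276 ± 0.0390 CPM (counts divided by TMM-scaled library size) in FXR-/- and 0.499 ± 0.160 CPM in WT (SD, n = 5 each; log2 fold change -0.84, edgeR adjusted p 0.0347). That call was lost in 10 of the 16 alternatives in which the gene was tested, with an adjusted p of up to 0.117, among them the removal of any 1 FXR-/- library, of WT 4 or of WT 9. Sertoli and germ cell markers were abundant in every library. The summed level of 10 Sertoli markers was 2699 to 3852 CPM in FXR-/- and 4019 to 4980 CPM in WT, with 7 of 10 lower. Clu alone averaged 1613 CPM of the mean sum of 3288 CPM in FXR-/-, and 2445 of 4629 CPM in WT. A sum without Clu was not examined. The 8 germ cell markers ran opposite to the Sertoli markers. All had a log2 fold change above 0, and 2 of them (Mael and Sohlh1) were higher. Their sums were 1329 to 1705 CPM in FXR-/- and 998 to 1471 CPM in WT. All 9 tested markers of epididymis and rete testis epithelium were higher (112 to 169 CPM summed in FXR-/-, against 62.3 to 81.4 CPM in WT), while Lcn5 and Lcn8 were too low to be tested. Of 12 adipocyte markers 9 were higher, and only Cidea had a log2 fold change below 0 (-0.47, edgeR adjusted p 0.0552). The 12 summed to 1280 CPM in FXR-/- 9 and 830.4 CPM in FXR-/- 10. The sums were 219 to 382 CPM in the other FXR-/- libraries and 85.0 to 228 CPM in WT. Fewer cells of a type and less RNA per cell cannot be told apart in whole tissue.

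Slc39a8 encodes ZIP8, an importer of zinc, manganese, iron and cadmium at the plasma membrane. It lies on the plus strand at chr3:135825279-135888572 (GRCm38, GENCODE M21; ENSMUSG00000053897). Raw counts were 948, 1106, 975, 1113 and 1008 in FXR-/- libraries 8 to 12, against 167, 139, 135, 172 and 153 in WT libraries 3, 4, 5, 6 and 9. These correspond to 27.9, 30.1, 24.7, 29.0 and 25.9 CPM in FXR-/- and 5.03, 4.0, 4.23, 5.15 and 4.61 CPM in WT. The genotypes did not overlap, and the lowest FXR-/- library stood well above the highest WT library. Slc39a8 averaged 27.5 ± 2.21 CPM in FXR-/- testes and 4.60 ± 0.494 CPM in WT testes (SD, n = 5 each), a 5.97-fold higher level (log2 fold change 2.58, SE 0.088). The spread between mice was small in both genotypes, at a coefficient of variation of 8.03% in FXR-/- and 10.7% in WT. The models Gm43428 and Gm43429 overlap the Slc39a8 gene body on the same strand by 3845 and 2251 bases. On the other strand 4933401H06Rik overlaps it by 6569 bases. These models were not among the genes counted, and reads there could be shared.

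**Figure D1:**
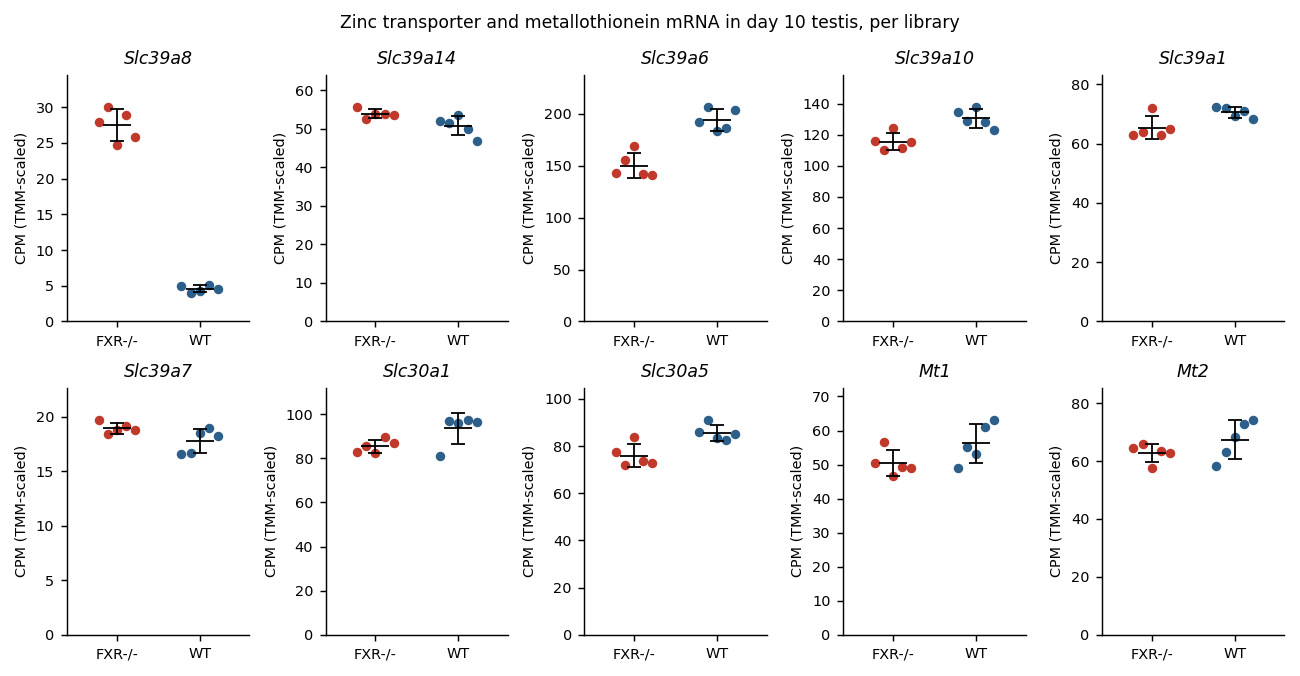
Level of each of the 10 genes in CPM in every library, FXR-/- left and WT right, with a bar at the group mean. Slc39a8 lies at 24.7 to 30.1 CPM in FXR-/- and at 4.0 to 5.15 CPM in WT, Slc39a6 also does not overlap, and the ranges of the other 8 genes overlap.

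The fold change of Slc39a8 stayed between 2.53 and 2.62 on the log2 scale in all 17 alternatives. FXR-/- 9 and FXR-/- 10, the libraries with most adipocyte marker RNA, were the highest and the lowest FXR-/- libraries for Slc39a8. Without both, the log2 fold change was 2.58. In that fit FXR-/- 8, 11 and 12 remained, with adipocyte sums of 219, 382 and 265 CPM, against 85.0 to 228 CPM in WT. The summed level of 7 endothelial markers was 178 to 249 CPM in FXR-/- and 195 to 227 CPM in WT, with 1 marker (Erg) higher. The duct marker sum was higher in FXR-/- without overlap, as Slc39a8 was. The Sertoli marker sum, of which Clu was the largest part, was lower in FXR-/- without overlap. The part of any of these cell types, adipocytes and endothelium included, in the level of Slc39a8 was not tested.

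**Figure D2:**
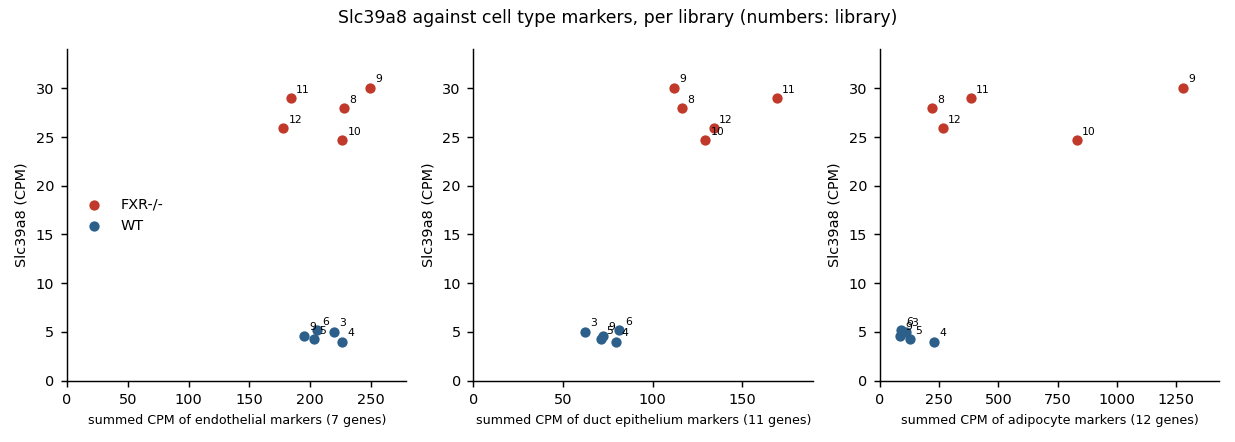
Slc39a8 level in CPM against the summed CPM of a marker list in each library, 1 panel per list, FXR-/- and WT in different colours. In the endothelial panel the genotypes overlap on the marker axis and are apart on the Slc39a8 axis. In the duct panel they are apart on both axes, with marker sums of 112 to 169 CPM in FXR-/- and 62.3 to 81.4 CPM in WT. In the adipocyte panel FXR-/- 9 and FXR-/- 10 lie far to the right at Slc39a8 levels of 30.1 and 24.7 CPM.

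RefSeq lists 2 promoter windows for Slc39a8, shown here because the gene had the widest separation of the 10. Each window is 300 bases around a transcript start, on GRCm38.p6 and the plus strand. Capitals mark the metal response element core, TGCACNC or TGCGCNC on either strand, and the nuclear receptor half-site AGGTCA on either strand, of which FXR binds inverted pairs.
Slc39a8 chr3:135825029-135825328: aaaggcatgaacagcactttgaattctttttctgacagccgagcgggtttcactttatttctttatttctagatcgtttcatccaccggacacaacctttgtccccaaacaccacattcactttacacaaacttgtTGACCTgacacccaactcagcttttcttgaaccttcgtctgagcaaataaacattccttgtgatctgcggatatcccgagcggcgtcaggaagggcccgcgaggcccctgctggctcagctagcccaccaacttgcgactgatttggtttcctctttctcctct
Slc39a8 chr3:135825407-135825706: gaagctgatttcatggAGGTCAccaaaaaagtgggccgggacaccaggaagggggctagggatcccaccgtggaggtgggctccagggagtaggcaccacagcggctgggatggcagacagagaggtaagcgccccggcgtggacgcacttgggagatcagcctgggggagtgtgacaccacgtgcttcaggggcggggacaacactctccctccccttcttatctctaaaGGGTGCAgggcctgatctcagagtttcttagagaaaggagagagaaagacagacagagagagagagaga
The first window holds 1 half-site, at bases 137 to 142 counted from 1 at its 5′ end. The second holds a half-site at bases 17 to 22 and a metal response core at bases 232 to 238. Among 32851 mouse promoter windows of this length, 16.3% hold a half-site and 25.7% at least 1 metal response core. No window of the genes matched here holds an inverted repeat of the half-site with 1 base between, a pattern found in 3 of the 32851 windows.

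Slc39a14 encodes ZIP14, the closest relative of ZIP8 with the same range of metals (chr14:70303469-70351425, minus strand; ENSMUSG00000022094). It had 55.7, 52.7, 53.8, 53.7 and 53.7 CPM in FXR-/- libraries, against 51.9, 51.5, 53.6, 50.1 and 46.9 CPM in WT libraries. The ranges overlapped, with means of 53.9 ± 1.11 CPM in FXR-/- and 50.8 ± 2.51 CPM in WT (log2 fold change 0.09, SE 0.042). The count ratio of Slc39a8 to Slc39a14, genes of unlike length, was 0.511 ± 0.0448 in FXR-/- and 0.0909 ± 0.0117 in WT (SD, n = 5 each).

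The plasma membrane importers Slc39a6 and Slc39a10 encode ZIP6 and ZIP10, which form a complex with each other. Slc39a6 (chr18:24579881-24603817, minus strand; ENSMUSG00000024270) had 143, 155, 169, 142 and 141 CPM in FXR-/- libraries, against 192, 207, 183, 186 and 204 CPM in WT libraries. All FXR-/- libraries lay below all WT libraries, with FXR-/- 10 nearest to WT. The means were 150.1 ± 12.1 CPM in FXR-/- and 195 ± 10.7 CPM in WT, 1.30-fold lower (log2 fold change -0.37, SE 0.058). It overlaps Elp2 on the other strand by 952 bases, and without stated use of strand their reads there cannot be told apart. Elp2 itself had a log2 fold change of -0.05 (SE 0.031, edgeR adjusted p 0.329).

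Slc39a10 (chr1:46807544-46892852, minus strand; ENSMUSG00000025986) is a gene that MTF-1 represses when zinc is high. It had 116, 110.0, 124, 112 and 115 CPM in FXR-/- libraries, against 135, 129, 138, 128 and 123 CPM in WT libraries. FXR-/- 10 reached into the WT range, and the other FXR-/- libraries lay below it. The means were 115 ± 5.58 CPM in FXR-/- and 130.5 ± 5.87 CPM in WT (log2 fold change -0.18, SE 0.045). The model Gm28151 overlaps it on the same strand by 951 bases and Gm37393 by 3870, so reads there could be split between them.

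Slc39a1 encodes ZIP1, a widely expressed plasma membrane importer (chr3:90248172-90253612, plus strand; ENSMUSG00000052310). It had 62.8, 64.0, 72.2, 63.1 and 65.0 CPM in FXR-/- libraries, against 72.5, 72.0, 69.4, 70.9 and 68.2 CPM in WT libraries. FXR-/- 10 lay within the WT range and the other 4 below it, with means of 65.4 ± 3.88 CPM in FXR-/- and 70.6 ± 1.78 CPM in WT (log2 fold change -0.11, SE 0.045). Slc39a7 encodes ZIP7, which releases zinc from the endoplasmic reticulum (chr17:34028269-34031682, minus strand; ENSMUSG00000024327). It had 19.7, 18.4, 18.7, 19.1 and 18.8 CPM in FXR-/- libraries, against 16.6, 16.7, 18.5, 18.9 and 18.2 CPM in WT libraries. The genotypes overlapped, at 18.9 ± 0.490 CPM in FXR-/- and 17.8 ± 1.10 CPM in WT (log2 fold change 0.09, SE 0.057). Gm20427 covers 3312 bases of it on the same strand, which makes its count uncertain.

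Slc30a1 encodes ZnT1, the zinc exporter of the plasma membrane (chr1:191906767-191913247, plus strand; ENSMUSG00000037434). It had 83.0, 85.5, 82.3, 89.7 and 86.9 CPM in FXR-/- libraries, against 81.0, 97.1, 96.1, 97.3 and 96.4 CPM in WT libraries. WT 3 lay below every FXR-/- library, and the other 4 WT libraries above them all. The means were 85.5 ± 3.01 CPM in FXR-/- and 93.6 ± 7.04 CPM in WT (log2 fold change -0.13, SE 0.054). The antisense RNA 1700034H15Rik overlaps 761 bases and had a log2 fold change of 0.39 (SE 0.086, edgeR adjusted p 0.0135).

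Slc30a5 encodes ZnT5, which loads zinc into the Golgi together with ZnT6 (chr13:100802648-100833427, minus strand; ENSMUSG00000021629). It had 77.4, 71.9, 84.0, 73.7 and 72.9 CPM in FXR-/- libraries, against 86.2, 91.1, 83.5, 82.5 and 85.0 CPM in WT libraries. FXR-/- 10 again lay within the WT range, with means of 76.0 ± 4.96 CPM in FXR-/- and 85.6 ± 3.34 CPM in WT (log2 fold change -0.17, SE 0.050).

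Mt1 and Mt2 lie side by side on chromosome 8 and encode the widely expressed metallothioneins. Mt1 (chr8:94179082-94180327, plus strand; ENSMUSG00000031765) had 50.5, 56.7, 46.8, 49.3 and 49.1 CPM in FXR-/- libraries, against 49.0, 55.0, 53.1, 60.9 and 63.1 CPM in WT libraries. Mt2 (chr8:94172664-94173568, plus strand; ENSMUSG00000031762) had 64.6, 65.8, 57.7, 63.4 and 62.8 CPM in FXR-/- libraries, against 58.2, 63.1, 68.4, 72.9 and 74.2 CPM in WT libraries. Both genes were highest in FXR-/- 9 and lowest in FXR-/- 10 among FXR-/- libraries, and highest in WT 9 and lowest in WT 3 among WT libraries. Mt1 averaged 50.5 ± 3.76 CPM in FXR-/- and 56.2 ± 5.76 CPM in WT (log2 fold change -0.16, SE 0.073). Mt2 averaged 62.8 ± 3.09 CPM in FXR-/- and 67.4 ± 6.69 CPM in WT (log2 fold change -0.10, SE 0.066). For both genes the SD between WT mice was about as large as, or larger than, the difference between the means of the genotypes. The count ratio of Mt2 to Mt1 was 1.25 ± 0.0534 in FXR-/- and 1.2 ± 0.0532 in WT. The antisense model Gm45774 overlaps Mt2 by 749 bases and was not among the genes counted.

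The promoter windows of the MTF-1 target genes are shown for their metal response cores, which are in capitals.
Mt1 chr8:94178839-94179138: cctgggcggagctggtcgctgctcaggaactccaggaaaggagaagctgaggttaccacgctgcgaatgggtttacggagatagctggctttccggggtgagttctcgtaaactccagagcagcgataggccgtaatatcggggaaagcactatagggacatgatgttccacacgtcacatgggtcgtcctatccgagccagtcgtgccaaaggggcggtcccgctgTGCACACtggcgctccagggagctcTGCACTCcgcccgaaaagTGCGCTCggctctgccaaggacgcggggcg
Mt2 chr8:94172368-94172667: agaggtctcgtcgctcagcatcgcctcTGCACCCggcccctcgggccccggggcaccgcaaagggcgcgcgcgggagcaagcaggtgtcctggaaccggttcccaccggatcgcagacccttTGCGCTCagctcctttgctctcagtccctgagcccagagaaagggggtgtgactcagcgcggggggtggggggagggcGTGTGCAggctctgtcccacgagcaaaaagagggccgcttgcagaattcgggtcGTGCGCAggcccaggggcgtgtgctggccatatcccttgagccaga
Slc30a1 chr1:191906531-191906830: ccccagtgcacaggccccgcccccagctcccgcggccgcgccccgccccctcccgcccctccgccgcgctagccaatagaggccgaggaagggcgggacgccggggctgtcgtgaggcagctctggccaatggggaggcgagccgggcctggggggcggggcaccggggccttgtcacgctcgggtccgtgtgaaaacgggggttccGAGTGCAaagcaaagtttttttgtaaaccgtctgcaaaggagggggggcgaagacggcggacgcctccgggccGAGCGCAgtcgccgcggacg
Mt2 holds 4 cores, Mt1 holds 3 and Slc30a1 holds 2. Of all 32851 windows, 7.11% hold at least 2, 1.97% at least 3 and 0.517% at least 4. Slc30a5 holds 1, and the windows of Slc39a1, Slc39a7 and Slc39a10 hold none, a statement about these letters and windows alone. Thus 8 of the 10 genes had a window, 10 windows in all, of which 5 hold a core and 2 a half-site. The others, Slc39a14 and Slc39a6, had no entry.

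**Figure D3:**
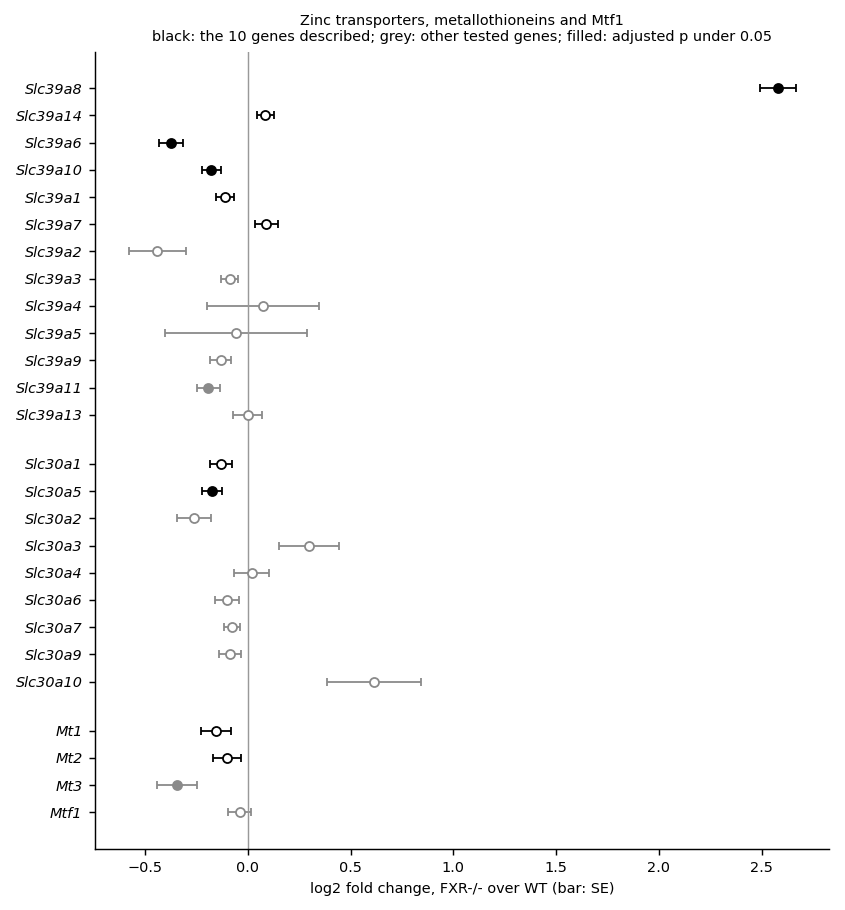
log2 fold change (FXR-/- over WT) with its standard error for the 10 genes (black), the other tested ZIP, ZnT and metallothionein genes and Mtf1 (grey), filled where the adjusted p was under 0.05. Slc39a8 stands at 2.58 and the other 9 genes lie between -0.37 and 0.09.

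Over all tested genes, 2576 of 18559 passed an edgeR adjusted p of 0.05 (13.9%), with 1146 higher in FXR-/- (6.17%) and 1430 lower (7.71%). Higher genes made up 44.5% of these calls with TMM factors, 61.5% when scaled by library totals and 53.0% when scaled by the upper quartile. Of the 10 genes, 4 passed, Slc39a8 higher and Slc39a6, Slc39a10 and Slc30a5 lower, and 2 had genotypes that did not overlap (11.6% of all tested genes). The genes were chosen on this contrast, so nothing is read from these counts. The count also moved with the processing. Slc39a10 did not pass with library totals or without FXR-/- 9, 11 or 12 or WT 5. Slc30a5 did not pass in 12 of 17, among them each removal of 1 library except FXR-/- 10. Slc39a1 passed without FXR-/- 10, and Slc30a1 without WT 3.

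Levels were compared between genes per kilobase of exon. Slc39a6 was the highest of 14 ZIP genes, at 36.8 ± 2.96 CPM per kilobase in FXR-/- and 47.8 ± 2.62 in WT, ahead of Slc39a1 at 27.7 ± 1.64 in FXR-/- and 29.9 ± 0.754 in WT. Slc39a10 followed at 18.9 ± 0.915 CPM per kilobase in FXR-/- and 21.4 ± 0.963 in WT. These leading ranks did not overlap with each other within either genotype. Slc39a7 and Slc39a14 reached 7.33 ± 0.190 and 5.11 ± 0.105 CPM per kilobase in FXR-/-, against 6.88 ± 0.426 and 4.81 ± 0.238 in WT. Slc39a8 held rank 10 of 14 in both genotypes, at 3.59 ± 0.288 CPM per kilobase in FXR-/- and 0.601 ± 0.0645 in WT. Its highest FXR-/- library, at 3.92, lay below the lowest Slc39a14 library of either genotype, at 4.44. As a share of the summed ZIP level, Slc39a8 made up 2.73 ± 0.297% in FXR-/- and 0.410 ± 0.0462% in WT.

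**Figure D4:**
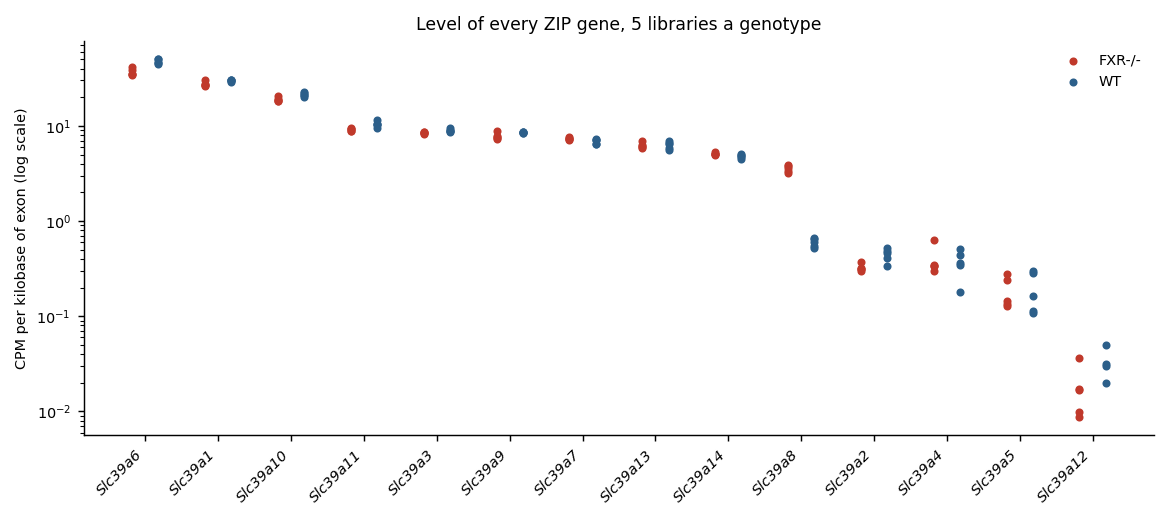
Level of all 14 ZIP genes in CPM per kilobase of exon (log axis), 1 point per library, FXR-/- left and WT right of each pair, ordered by level. Slc39a8 lies at 3.22 to 3.92 in FXR-/- and at 0.522 to 0.671 in WT, at rank 10 in both. Points at 0 are not drawn on the log axis (Slc39a12 in WT).

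Summed over the family, ZIP transcripts came to 132 ± 6.20 CPM per kilobase in FXR-/- and 147 ± 2.46 in WT, without overlap. The gap was narrow, with FXR-/- 10 at 142.9 and WT 5 at 143.8. Whether the family sums stay apart with other scalings was not tested. The sum without Slc39a8 was 128 ± 6.37 in FXR-/- and 146 ± 2.48 in WT, and the widest gap of any ZIP gene was that of Slc39a6. Sertoli marker sums, of which Clu was the largest part, were also lower in FXR-/- without overlap. The part of Sertoli cells in the family sums was not tested. ZnT genes summed to 93.8 ± 5.07 CPM per kilobase in FXR-/- and 103 ± 1.79 in WT, also without overlap, and Slc30a2 led them at 26.0 ± 3.08 in FXR-/- and 31.2 ± 2.57 in WT. Slc30a1 stood at 16.3 ± 0.573 CPM per kilobase in FXR-/- and 17.8 ± 1.34 in WT, and Slc30a5 at 10.4 ± 0.680 in FXR-/- and 11.7 ± 0.458 in WT. Metallothionein genes summed to 161 ± 7.82 CPM per kilobase in FXR-/- and 177 ± 16 in WT, with overlap. Of this, Mt2 gave 107 ± 5.25 and Mt1 gave 40.5 ± 3.01 in FXR-/-, against 115 ± 11.4 and 45.1 ± 4.63 in WT. The exon length used was 1246 bases for Mt1, its whole gene span, and 588 bases for Mt2. The gap between their levels per kilobase, and the family sum, depend on these annotated lengths.

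A further 7 lists held 68 genes, 6 lists of metal handling and 1 of glucocorticoid-inducible genes. Of these 64 were tested, and 1 rose and 6 fell (10.9%), against 13.9% of all genes. Their median log2 fold change was -0.01, and that of all genes 0.01. Among 7 other ZIP genes, Slc39a11, a zinc transporter of Golgi and nucleus, fell to 30.8 ± 0.962 CPM in FXR-/-, against 35.2 ± 2.48 CPM in WT (log2 fold change -0.19, SE 0.054, edgeR adjusted p 0.0375). None of 7 other ZnT genes passed in edgeR, with 2 under an unadjusted p of 0.05 and 1 by DESeq2. Slc30a2, a vesicular exporter, averaged 92.8 ± 11.0 CPM in FXR-/- and 111 ± 9.15 CPM in WT (edgeR adjusted p 0.0552), and Slc30a9 131 ± 10.1 CPM in FXR-/- and 139 ± 5.27 CPM in WT (edgeR adjusted p 0.320).

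Mt3, a metallothionein best known from brain, was the only 1 of 6 further metallothionein and MTF-1 related genes to pass. It had 11.3, 16.1, 15.9, 15.6 and 13.8 CPM in FXR-/- libraries, against 18.2, 19.4, 17.1, 17.8 and 20.1 CPM in WT libraries. The genotypes did not overlap, and it fell to 14.6 ± 2.05 CPM in FXR-/-, against 18.5 ± 1.2 CPM in WT (log2 fold change -0.34, SE 0.096, edgeR adjusted p 0.0346).

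Of 8 copper genes 3 passed, all lower, where 7.71% of all tested genes were lower, and each of the 3 calls was lost on leaving out 1 library. Slc31a1, the copper importer CTR1, fell to 125 ± 18.5 CPM in FXR-/-, against 163 ± 13.1 CPM in WT (log2 fold change -0.38, SE 0.098, edgeR adjusted p 0.0241). Atp7a, the copper-exporting ATPase, fell to 65.3 ± 4.83 CPM in FXR-/-, against 80.4 ± 9.07 CPM in WT (log2 fold change -0.30, SE 0.078, edgeR adjusted p 0.0274). Cp, ceruloplasmin, a copper ferroxidase that Sertoli cells secrete, fell to 63.8 ± 5.68 CPM in FXR-/-, against 82.3 ± 12.5 CPM in WT (log2 fold change -0.37, SE 0.094, edgeR adjusted p 0.0248). The Sertoli marker sum was lower in the same libraries, and its part in these values was not tested.

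Manganese and iron genes, the other cargo of ZIP8, gave no call among 16 in edgeR or DESeq2, with 2 under an unadjusted p of 0.05. Fth1, the ferritin heavy chain, averaged 292 CPM in FXR-/- and 299 CPM in WT (edgeR adjusted p 0.626), and its sign turned with library totals. Ireb2, which controls iron-responsive mRNAs, averaged 293 CPM in FXR-/- and 272 CPM in WT (edgeR adjusted p 0.193). Among 12 manganese or zinc enzymes, Arg2, the mitochondrial arginase, rose to 2.18 ± 0.775 CPM in FXR-/-, against 1.11 ± 0.301 CPM in WT (log2 fold change 0.97, SE 0.255, edgeR adjusted p 0.0279). Adam17, a zinc metalloprotease, fell to 121 ± 7.69 CPM in FXR-/-, against 136 ± 4.43 CPM in WT (log2 fold change -0.17, SE 0.047, edgeR adjusted p 0.0387). Glucocorticoids are known to induce metallothioneins, and none of 8 glucocorticoid-inducible genes passed in edgeR or DESeq2 (2 under an unadjusted p of 0.05). Fkbp5 and Tsc22d3 had edgeR adjusted p values of 0.604 and 0.438.

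These calls depended on the libraries fitted and, for Slc39a11 and Adam17, also on the processing: with all libraries, both were lost with upper-quartile scaling, with library totals and with no filter on low counts. Slc39a11 was lost without any 1 of FXR-/- 8, 9, 11 or 12 or WT 4, 6 or 9 (adjusted p up to 0.0921), and Adam17 without any 1 of FXR-/- 8, 9, 11 or 12 or WT 3, 4, 5 or 6 (up to 0.0924). Mt3 was lost without FXR-/- 11 or 12 or WT 3, 4, 6 or 9 (up to 0.0794), and Arg2 without FXR-/- 11 or 12 or WT 3, 5 or 6 (up to 0.0642). Slc31a1 was lost without FXR-/- 12 or WT 4 or 9 (up to 0.0611), Cp without FXR-/- 9 or 12 (up to 0.0604), and Atp7a without FXR-/- 11 or WT 5, 6 or 9 (up to 0.0617). Each adjusted p is from edgeR, in the fit of the remaining libraries. Slc30a2 passed without FXR-/- 10, and Ireb2 without FXR-/- 8.

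Within 1 Mb of Slc39a8, 12 other genes were tested and 4 passed (33.3%, against 13.9% of all tested genes), 1 higher and 3 lower. Slc9b2, a sodium-proton exchanger gene 479.9 kb upstream, had 0.501, 0.190, 0.253, 0.156 and 0.257 CPM in FXR-/- libraries, against 1.84, 1.53, 1.41, 1.59 and 1.39 CPM in WT libraries. It fell 5.72-fold without overlap, to 6 to 17 counts per FXR-/- library, against 45 to 61 per WT library (log2 fold change -2.52, SE 0.244, edgeR adjusted p 7.03e-05). Manba, lysosomal beta-mannosidase, 254 kb upstream, fell to 27.4 ± 3.15 CPM in FXR-/-, against 40.3 ± 5.68 CPM in WT (log2 fold change -0.56, SE 0.10, edgeR adjusted p 0.00501). Bdh2, a dehydrogenase gene 521 kb upstream, fell to 4.47 ± 0.357 CPM in FXR-/-, against 6.18 ± 0.675 CPM in WT (log2 fold change -0.47, SE 0.10, edgeR adjusted p 0.0110). All 3 lower genes passed in all 17 alternatives.

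Slc9b1, next to Slc9b2, was higher at 8.12 ± 0.342 CPM in FXR-/- and 6.82 ± 0.259 CPM in WT (log2 fold change 0.25, SE 0.068, edgeR adjusted p 0.0319). Its call was lost in 10 of 17 alternatives, among them the removal of any 1 library except FXR-/- 10 and WT 9 (adjusted p up to 0.0744). The nearest tested genes did not pass. Nfkb1, a transcription factor gene 134 kb upstream, averaged 53.7 ± 4.45 CPM in FXR-/- and 60.1 ± 4.59 CPM in WT (edgeR adjusted p 0.125), and Bank1, a B-cell adaptor gene 165 kb downstream, 0.768 ± 0.189 CPM in FXR-/- and 0.983 ± 0.364 CPM in WT (edgeR adjusted p 0.398). Around the other genes of the 10 the same window gave 3.45% of tested genes called (1 of 29, Slc39a14) to 33.3% (7 of 21, Slc30a5), and 10 of 33 (30.3%) around Mt1 and Mt2. The share around Slc39a8 equalled the highest of these, that of Slc30a5, and rests on 12 genes.

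**Figure D5:**
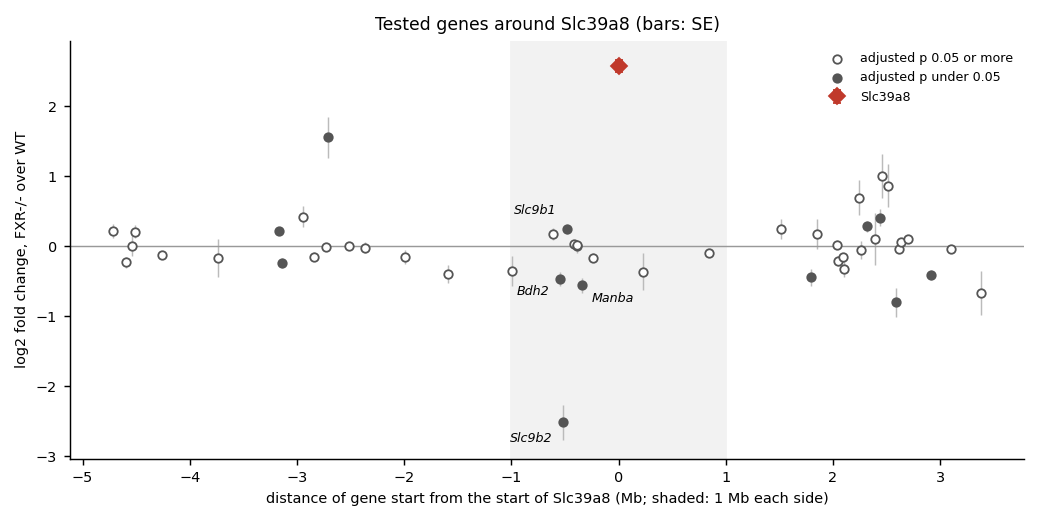
log2 fold change (FXR-/- over WT) of genes within 5 Mb of Slc39a8 against distance in Mb between gene starts, with Slc39a8 at 0. Slc39a8 stands at 2.58 and Slc9b2 at -2.52. The changed neighbours within 1 Mb lie upstream, as do all genes tested there except Bank1 and Ppp3ca.

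Likeness to Slc39a8 was measured as the root mean square difference of log2 CPM, centred per gene, over the 10 libraries, among 13784 genes of at least 1 CPM. Tmod4, a tropomodulin gene, was nearest at 0.287 on the log2 scale, with 3.80 ± 0.295 CPM in FXR-/- and 0.677 ± 0.179 CPM in WT. It was followed by Tchh, trichohyalin, at 0.368, with 17.3 ± 2.36 CPM in FXR-/- and 4.36 ± 0.890 CPM in WT. Ryr3, a ryanodine receptor calcium channel gene, came next at 0.391, with 15.3 ± 2.03 CPM in FXR-/- and 4.0 ± 0.652 CPM in WT, then Selenbp2 at 0.423 and Igsf23 at 0.432. Tmod4, Tchh and Selenbp2 also lie on chromosome 3, starting at bases 95124476, 93442330 and 94693556. That is outside the 5 Mb window of Slc39a8, which starts at 135825279, and closer to Slc39a1, which starts at 90248172. The likeness is dominated by the step between the genotypes, on which Slc39a8 was chosen. Mt1 was most like Dock8 at 0.0550, Ttll12 at 0.0593 and Mex3d at 0.0607, and Mt2 stood at rank 7 of 13793 at 0.0630.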

How the data were processed

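Testis RNA of 10 mice was measured by RNA sequencing. Per the labels' protocols, Trizol RNA was made into libraries with an Illumina TruSeq RNA kit, and all were run on 1 flowcell. FastQC 0.10.1, CASAVA, Bowtie, TopHat2 2.0.10, Bowtie2 2.1.0 and the build mm10 are named in the submitters' processing notes, with no role given. Which read counter and annotation served, and whether strand was used, is not given in the sources used here. Raw counts per gene, as deposited by the authors, entered every test. The table's 20 columns of normalized values, whose decimal marks are lost, were not used. Of 30719 genes, 30212 matched GENCODE M21 by identifier.

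After the filter of filterByExpr and TMM scaling, counts were tested by genotype with the quasi-likelihood F-test of edgeR 4.0.16 in R 4.3.3 (two-sided, Benjamini-Hochberg over 18559 genes, called under 0.05). SEs are from that fit. Levels are CPM, and between genes CPM per kilobase of exon. Depth was 32330029 to 39655170 counts per library. SDs give the spread between mice, and p-values set the difference between the genotypes against that spread. Alternatives were DESeq2 1.42.0, other scalings, other filters and leaving out libraries. The test was run on simulated data first. It recovered 28.0% of simulated 1.2-fold changes, 62.0% of 1.5-fold, 91.8% of 2-fold and 98.0% of 4-fold changes. A gene that was not called may therefore still differ by a small fold. No 2 libraries of a genotype agreed within sampling noise (chi-square per degree of freedom 4.07 to 24.0).

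The 10 genes and all lists were chosen with earlier results of these data known. Outside them, the text names up to 6 changed genes per list (the 2 most abundant where none changed), changed and nearest genes within 1 Mb of Slc39a8, the genes most like Slc39a8 and Mt1, and Nr1h4. Overlapping genes are named because their reads could be shared. Promoters are from the RefSeq table of GRCm38.p6.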

Additional observations from a re-analysis of the deposited data

Results flagged for a closer look

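A single library stood apart from the other 4 of its genotype in 10 of 76 sets of values examined, by Dixon's criterion of 0.71, which chance meets in about 1 of 20 sets. Among the transporter genes, Slc39a1 had 72.2 CPM in FXR-/- 10, against 62.8 to 65.0 CPM in the other FXR-/- libraries, and Slc30a1 had 81.0 CPM in WT 3, against 96.1 to 97.3 CPM in the other WT libraries. Among other metal genes, Cp had 104 CPM in WT 3 (74.0 to 80.6 CPM in the others) and Atp7a 57.0 CPM in FXR-/- 8 (65.9 to 69.3 CPM). Tsc22d3 had 117 CPM in FXR-/- 10 (138 to 144 CPM in the others). Of the genes most like Slc39a8, Ryr3 had 2.86 CPM in WT 3 (4.12 to 4.46 CPM), Selenbp2 2.74 CPM in FXR-/- 8 (2.17 to 2.33 CPM) and Igsf23 0.598 CPM in WT 6 (0.374 to 0.439 CPM). Ttll12, like Mt1 in its values, had 83.5 CPM in FXR-/- 9 (77.4 to 78.5 CPM in the others). Nr1h4 had 0.783 CPM in WT 9, against 0.407 to 0.452 CPM in the other WT libraries.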

How the results depend on the processing

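The log2 fold change of Slc39a8 was 2.53 to 2.62 with 1 library left out. Over all genes, 2576 calls became 1427 to 2867 with 1 library left out, the fewest without FXR-/- 11 (1427), WT 4 (1601) and FXR-/- 12 (1635), and DESeq2 called 3483. Calls among the 64 tested genes of metal handling and glucocorticoid induction outside the 10, 7 with all libraries, ranged from 1 to 12 with 1 library left out. They numbered 4, 12, 2 and 1 without FXR-/- 9, 10, 11 and 12, and 4, 3, 4, 2 and 4 without WT 3, 4, 5, 6 and 9. Fewer samples enter those fits, and the cause of the rise without FXR-/- 10 was not tested. Within 1 Mb of Slc39a8, 3 or 4 genes passed in every alternative. Scaling with library totals moved the median log2 fold change of all genes by 0.04. No paired analysis was possible because the genotypes share only 1 replicate number. With 5 mice per genotype, the differences of Mt1 and Mt2 were about the size of the spread between mice. Their log2 fold changes were -0.16 and -0.10, beside a pooled SD of log2 CPM of 0.128 and 0.115.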

Other observations

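Within 5 Mb of Slc39a8, 49 other genes were tested and 12 passed in edgeR (24.5%, against 13.9% of all tested genes), 5 higher and 7 lower. The same window gave 7.89% to 23.9% around the other 9 transporter and metallothionein genes, so the share around Slc39a8 was the highest of the 10, a difference that was not tested. Beyond 1 Mb these were named after their values were seen. Arhgef38, a guanine nucleotide exchange factor gene 2.59 Mb upstream, averaged 1.99 ± 0.723 CPM in FXR-/- and 0.674 ± 0.237 CPM in WT (log2 fold change 1.56, edgeR adjusted p 0.00627). Tspan5, a tetraspanin gene 2.85 Mb downstream, averaged 66.3 ± 6.72 CPM in FXR-/- and 88.0 ± 4.98 CPM in WT (log2 fold change -0.41, edgeR adjusted p 0.00402). In the alcohol dehydrogenase cluster, Adh1 was higher at 43.8 ± 8.20 CPM in FXR-/- and 32.9 ± 3.22 CPM in WT (edgeR adjusted p 0.0429), and Adh4 lower at 2.69 ± 0.890 CPM in FXR-/- and 4.68 ± 0.708 CPM in WT (edgeR adjusted p 0.0275).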
